A study of Cercocebus atys with 16 samples.

Results

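The MYC and MAX network was described here through 8 genes: MYC, MAX, MXD1, MXD3, MXD4, MXI1, MNT and MLX, out of 11995 gene names on the array. Its members were all probes whose gene name in the array files is one of these symbols. That gave 10 of 43603 distinct probes, covering 5 of the 8 genes (MYC, MAX, MXD1, MXI1 and MLX). MXD3, MXD4 and MNT stand under transcript or locus identifiers in the gene name column, and 5 further probes were assigned to them from the gene number in the probe description. Those 5 probes were chosen after the files had been seen and are counted apart throughout.

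The cells were CD3+ CD4- CD8- (double-negative) T cells from the blood of 4 sooty mangabeys (Cercocebus atys), all infected with SIV, the simian immunodeficiency virus. The animals are called FNV and FKN, with CD4 status labelled normal, and FBR and FTV, with CD4 status labelled low; ages are not given in the sources used here. From each animal 1 unstimulated culture was set beside 1 culture stimulated for 4 h with antibodies to CD3 and CD28, after magnetic bead depletion of CD4, CD8 and CD16 cells, selection of CD3+ cells and overnight rest. Each animal had 4 arrays with 2 colours designed on the rhesus macaque: stimulated against unstimulated RNA in each dye orientation, and each RNA against itself.

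MYC is a transcription factor that binds DNA as a dimer with MAX and raises expression of genes for growth, metabolism and ribosome production. MAX also pairs with the MXD proteins, MXI1 and MNT, which bind the same E-box sites and recruit SIN3 and histone deacetylase corepressors. MLX is a MAX-like protein that pairs with some of the same repressors and with the glucose-sensing Mondo proteins. In T cells MYC is an early gene of T cell receptor signalling, while several MXD genes are known for expression in resting or differentiated cells.

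Spots well above local background made up 58.6 to 66.4% of each of the 12 later arrays and 38.4 to 65.4% of FNV's 4 arrays, which were scanned in an earlier batch. No spot was saturated. Among the T cell markers, CD3D and CD3E were well above background in all 16 channels of each condition. CD4, whose cells the isolation removes, was above background in all 16 channels of each condition too, as was the monocyte marker CD14. On 1 ratio array of FNV the title and a characteristic give different RNA for channel 2; the title was followed, and values without that array are given where they change a call.

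Stimulation raised MYC and lowered MXD4, MXI1, MXD3 and MXD1, while neither MAX probe passed the test. A probe is said to have risen or fallen where limma's adjusted p over all 27493 tested probes was under 0.05, which 40.3% of them met, 19.9% upward and 20.4% downward. Of the 10 probes carrying a member's gene name, all of which passed the filter on dim spots, 3 rose (both for MYC and 1 for MLX), 4 fell (all 3 for MXI1 and that for MXD1) and 3 did not pass. Of the 5 probes named by description, 4 passed the filter, 0 rose and 3 fell (1 for MXD3 and both for MXD4). All 10 called probes had the same sign in 4 of 4 animals. The median absolute log2 ratio was 0.66 over the 10 probes and 0.62 over all 14 tested, against 0.23 over all tested probes. These member medians count MYC by 2 probes that share 59 of 60 bases, and MXI1 by 3. The values next to the median of the 10 are those of MXD1 (-0.40) and MXI1 probe 1 (-0.91), so it shifts with 1 probe. In RNA from whole cultures, a change in how many cells of a type are present and a change in RNA per cell cannot be told apart.

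**Figure D1:**
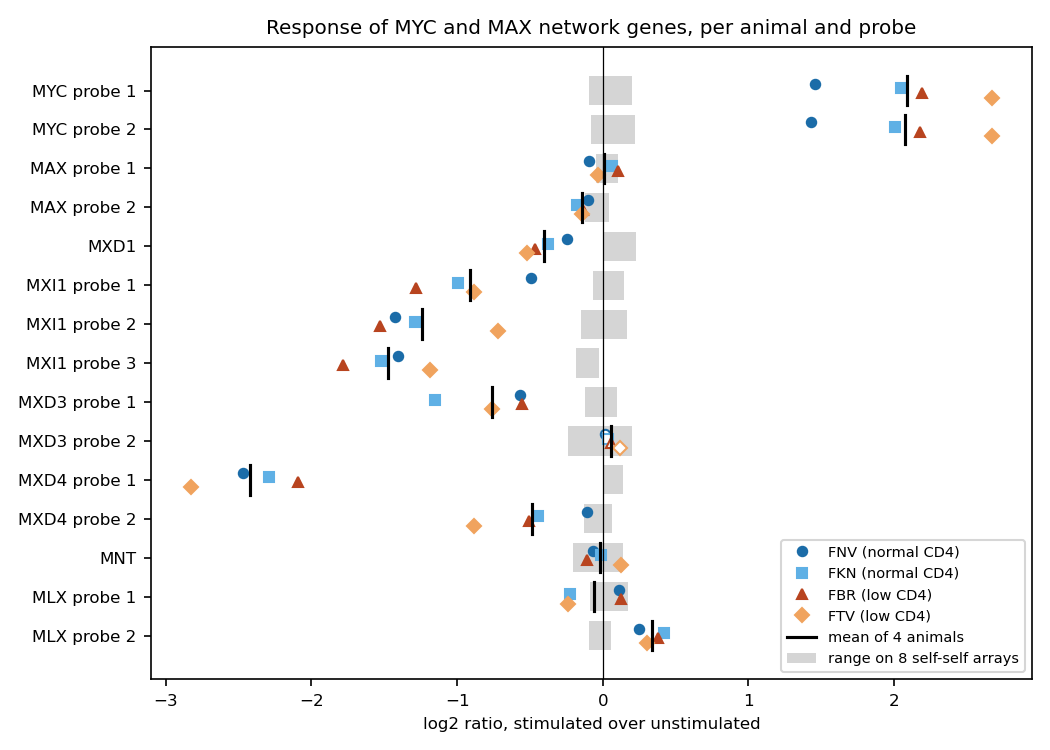
Log2 ratio of stimulated over unstimulated RNA (x axis) for each probe of the 8 genes (rows), with 1 point per animal, open where the probe was too dim to be tested, and a bar at the mean. Grey boxes span the ratios on the 8 arrays that hold the same RNA in both channels. All MYC points lie between 1.43 and 2.67, all points of MXD4 probe 1 between -2.83 and -2.09, and the MAX points near 0.

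MYC was detected by a pair of probes at chr8:130353915-130353974 and chr8:130353914-130353973 (rheMac2, + strand). They share 59 of 60 bases, and over the 8 ratio arrays they correlated at 1.00, so they measure 1 thing. The log2 ratio of probe 1 was 1.46 in FNV, 2.05 in FKN, 2.19 in FBR and 2.67 in FTV. FNV was the lowest and FTV the highest. The mean was 2.09 ± 0.50 (SD, n = 4 animals), a 4.26-fold rise (limma adjusted p = 0.0014, 95% interval 1.60 to 2.58). Probe 2 gave 2.07 ± 0.51 (limma adjusted p = 0.00152). By size of rise, the pair ranked 115 and 122 among the 27493 probes.

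On the scale of log2 intensity levels, normalised between arrays, MYC probe 1 stood at 9.90 in FNV, 9.50 in FKN, 9.95 in FBR and 8.88 in FTV without stimulation. After stimulation it stood at 11.25, 11.44, 12.03 and 11.51 in the same order. Every stimulated level lay above every unstimulated level; over all tested probes 16% had no overlap between conditions, and of the 14 tested probes of the 8 genes 7 had none. The unstimulated levels spread more (SD 0.50) than the stimulated ones (SD 0.33), and FTV, with the lowest starting level, had the largest rise. In FNV, which has the array with conflicting labels, the 2 dye orientations of probe 2 gave 1.39 and 1.48. In FTV, where the 2 dye orientations of probe 1 were farthest apart, they gave 2.48 and 2.86, a gap of 0.39, and on the arrays with the same RNA in both channels the ratio of probe 1 did not exceed 0.20 in size.

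**Figure D2:**
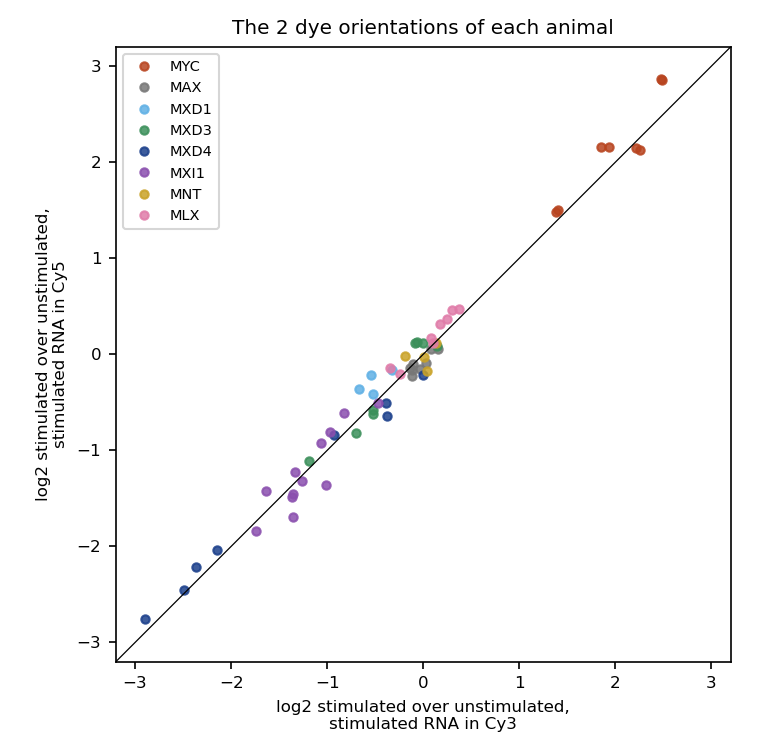
Log2 ratio of stimulated over unstimulated RNA with stimulated RNA labelled in Cy3 (x axis) and in Cy5 (y axis), 1 point per probe and animal, coloured by gene, with a line where both are equal. The points of MYC and of MXD4 probe 1 stay near the line at opposite ends, and the largest gap between orientations is 0.39 (MYC in FTV).

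MAX, the shared partner, was measured by 2 probes 8577 bases apart, at chr7:128076793-128076852 and chr7:128085370-128085429 (rheMac2, - strand). Probe 1 gave log2 ratios of -0.09 in FNV, 0.06 in FKN, 0.11 in FBR and -0.03 in FTV, with 2 animals above 0 and 2 below. Its mean was 0.01 ± 0.09 (n = 4, limma adjusted p = 0.892), with a 95% interval of -0.14 to 0.16, which leaves room for only small changes at this probe. Probe 2 gave -0.10, -0.17, -0.14 and -0.14 in the same order, below 0 in every animal. Its mean of -0.14 ± 0.03 did not pass (limma adjusted p = 0.0769) and did with no filter on dim spots (0.0305). Levels of MAX probe 1 ran from 12.83 to 13.53 unstimulated and from 12.82 to 13.33 stimulated, so the conditions overlapped.

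Of the repressor partners of MAX, MXD4 had the largest mean fall, at its probe 1. Its 2 probes lie 2076 bases apart on chromosome 1 of rheMac2, both on the + strand, at chr1:1703235-1703294 (probe 1) and chr1:1701159-1701218 (probe 2). Their first 30 bases as the files list them, 5′ to 3′, are shown because the probes differ in brightness and in measured ratio; capitals mark runs of at least 4 A or 4 T.
MXD4 probe 1: cccacctgtccaccatgtgggccatgctgt
MXD4 probe 2: TTTTaaacAAAAAgcAAAAAAgtAAAAtgc
A is 4 of these 30 bases in probe 1 and 18 in probe 2, though over all 60 bases both hold 55% A and T.

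Probe 1 of MXD4 gave log2 ratios of -2.47 in FNV, -2.29 in FKN, -2.09 in FBR and -2.83 in FTV. Its mean of -2.42 ± 0.31 is a 5.36-fold fall (n = 4, limma adjusted p = 0.000551), and 34 tested probes (0.124%) had a lower value. The level fell from 12.66, 12.31, 12.12 and 12.92 to 10.14, 10.00, 10.04 and 10.07. No stimulated level reached an unstimulated one, and the SD between animals was 0.06 after stimulation against 0.36 before it.

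Probe 2 of MXD4 was dim, well above background in 15 of 16 unstimulated and 8 of 16 stimulated channels, and in none of FNV's 4 stimulated channels. It gave -0.11, -0.44, -0.51 and -0.88, a mean of -0.49 ± 0.32 (n = 4, limma adjusted p = 0.0333). In FNV its dye orientations gave 0.00 and -0.22 and its level went from 6.66 to 6.85, so no fall was shown in that animal, and near background the size of its response cannot be set against that of probe 1. The call was lost without FKN (adjusted p = 0.108), without FBR (0.117), without FTV (0.0765) and without the FNV array of conflicting labels (0.0556), and the scanner software's own background treatment gave -1.34. In the authors' deposited table the row matched to probe 2 averages -1.63 over FKN, FBR and FTV, and that matched to probe 1 reads -0.63 in FNV, on an accession that the older annotation edition gives to 2 probes.

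MXI1, another repressor that pairs with MAX, was measured by 3 probes whose starts lie within 802 bases, at chr9:109978659-109978718, chr9:109977973-109978032 and chr9:109977857-109977916 (rheMac2, + strand). Probe 1 gave log2 ratios of -0.49 in FNV, -0.996 in FKN, -1.28 in FBR and -0.89 in FTV. Probe 2 gave -1.43, -1.29, -1.53 and -0.72, and probe 3 gave -1.41, -1.52, -1.79 and -1.19. FBR had the strongest fall at all 3 probes, while the weakest was FNV's at probe 1 and FTV's at probes 2 and 3.

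The means for MXI1 were -0.91 ± 0.33, -1.24 ± 0.36 and -1.48 ± 0.25, and all 3 fell (n = 4, limma adjusted p = 0.00507, 0.0026 and 0.000806). The largest is a 2.78-fold fall. At probe 3 the level went from 10.68, 11.47, 11.31 and 11.67 to 9.25, 9.97, 9.53 and 10.49, without overlap between conditions. Probes 1 and 2 did not overlap between conditions either.

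MXD3 and MXD1 complete the MXD genes measured here. MXD3 has a brighter probe at chr6:173829824-173829883 (rheMac2, - strand), with log2 ratios of -0.57 in FNV, -1.15 in FKN, -0.55 in FBR and -0.76 in FTV. That probe fell by a mean of 0.76 on the log2 scale (SD 0.28, n = 4, limma adjusted p = 0.00603), and its levels did not overlap: 8.73 to 9.28 before and 7.74 to 8.50 after. The other MXD3 probe, 1682 bases away, was well above background in 3 of 16 unstimulated and 1 of 16 stimulated channels and was not tested. So dim a probe cannot show whether the gene fell. Its log2 ratios ran from 0.02 to 0.12, but the 2 dye orientations had opposite signs in FNV, FKN and FBR. On arrays with the same RNA in both channels its ratio reached 0.24 in size. In the authors' deposited table the row matched to this dim probe averages 0.84, from 0.13 in FNV to 2.06 in FTV.

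MXD1, at chr13:70198332-70198391 (rheMac2, + strand), gave log2 ratios of -0.25 in FNV, -0.38 in FKN, -0.46 in FBR and -0.52 in FTV. The mean was -0.40 ± 0.12 (n = 4, limma adjusted p = 0.0078). Its levels overlapped between conditions, with an SD between animals of 0.65 in each. Unstimulated levels were 10.00 in FNV and 9.88 in FTV against 8.80 in FKN and 8.84 in FBR, and stimulated levels kept that split, at 9.71 and 9.37 against 8.48 and 8.40.

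Markers of other blood cells varied between the same animals. The summed unstimulated level of 7 monocyte marker genes was 107700 intensity units in FNV against 4967 to 10150 in the others, and 37410 against 3869 to 6202 after stimulation. The unstimulated sum in FNV is mostly LYZ. Between animals, the unstimulated log2 level of LYZ ran from 10.46 to 16.48, and that of CD14 from 10.27 to 11.88. The summed level of 4 NK cell markers was 4965 in FTV against 380.2 to 780.5 without stimulation. That sum rests mainly on KLRD1, so it does not show 4 markers high together. Averaged over animals, the unstimulated log2 level was 8.40 for KLRD1 but 7.05 to 7.28 for KLRF1, NCAM1 and FGFBP2. The summed level of 3 B cell markers was 14050 in FNV against 1876 to 3265 without stimulation. Other markers varied differently: without stimulation, red cell markers summed to 5581 in FNV against 26540 to 43520 in the others. Platelet markers summed to 1796 in FKN against 1005 to 1065. Of the monocyte markers 0 rose and 4 of 7 fell (57.1%, median log2 ratio -0.87). Of the B cell markers 2 of 3 fell (66.7%, median -1.15). T cell markers moved both ways: 4 of 8 fell (50%) and 3 rose, with a median of -0.28. Falls were called for 1 of 4 NK cell markers (25%), 1 of 3 red cell markers (33.3%) and 0 of 4 platelet markers. Among all named genes 24.6% fell. CD14 and MS4A1 were above background in all 16 unstimulated channels. The part of these cells in the MXD1 levels, or in any fall described here, was not tested. Without FNV the mean log2 ratio was 2.30 for MYC probe 1 and -2.40 for MXD4 probe 1, each still past the threshold. Leaving out FNV does not test the part of these cells. The median log2 ratio of the monocyte markers was also below 0 in FKN (-0.80), FBR (-0.46) and FTV (-0.80).

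**Figure D3:**
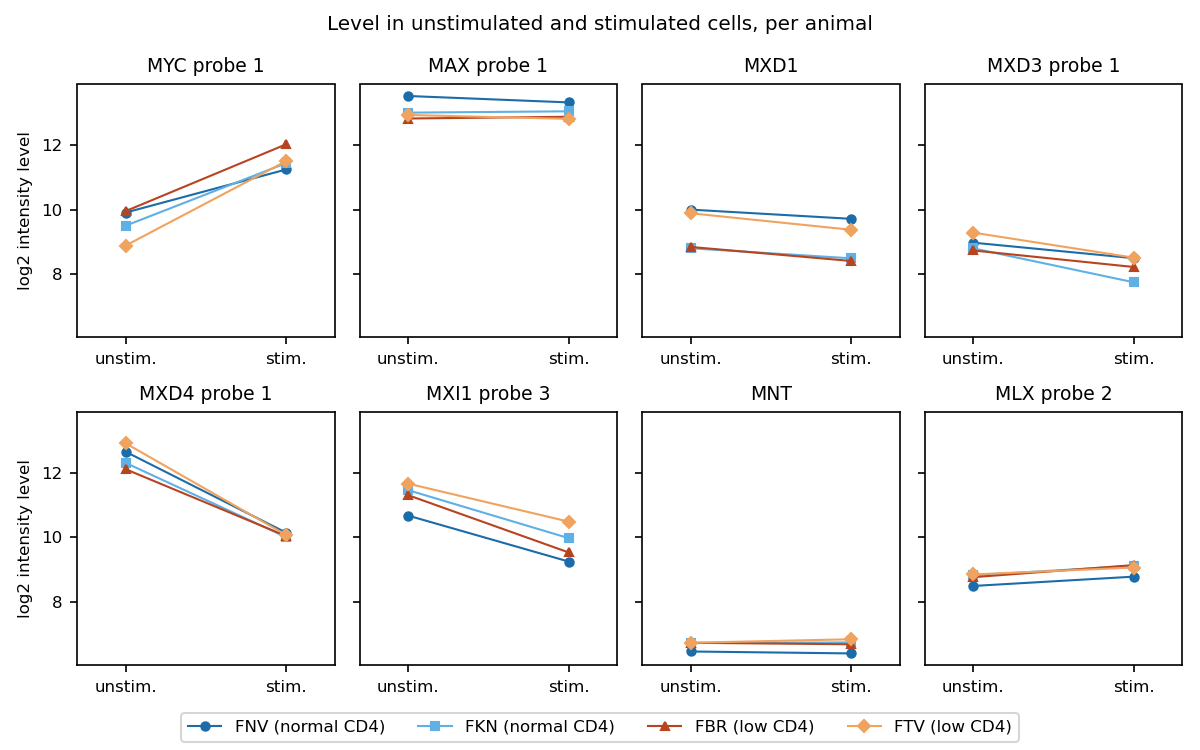
Log2 intensity level (y axis) in unstimulated and stimulated cells, 1 panel per gene at 1 probe each and 1 line per animal; levels of different panels come from different probes and cannot be set against each other. All 4 lines climb for MYC and drop for MXD4 and MXI1, and MXD1 shows FNV and FTV above FKN and FBR in both conditions.

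MNT is the MAX-binding repressor expressed in most cell types. Its probe lies at chr16:2187426-2187485 (rheMac2, - strand) and is shown whole, since it is the only one for the gene.
MNT probe: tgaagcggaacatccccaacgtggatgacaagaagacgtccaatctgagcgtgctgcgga
The log2 ratios were -0.07 in FNV, -0.01 in FKN, -0.11 in FBR and 0.12 in FTV, with a mean of -0.02 ± 0.10 (n = 4, limma adjusted p = 0.851, 95% interval -0.17 to 0.14). The probe was dim: 11 of 16 unstimulated and 7 of 16 stimulated channels were well above background, and 0 of 4 in FNV in either condition. The ratio of so dim a probe can understate a change.

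MLX was measured by 2 probes on the + strand of chromosome 16 in rheMac2, with starts 3736 bases apart. Probe 1 lies at chr16:52695205-52695264 and probe 2 spans chr16:52691469-52691907, 439 bases of genome for 60 bases of probe, so it joins separate stretches of the genome. Only probe 2 passed the test, so the start of probe 1 and the whole of probe 2 are given, with no run of 4 A or T in either.
MLX probe 1: cttggggtatccttcaagtattgcatcaga
MLX probe 2: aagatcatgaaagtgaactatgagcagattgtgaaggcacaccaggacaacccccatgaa
Probe 1 gave log2 ratios of 0.11 in FNV, -0.22 in FKN, 0.12 in FBR and -0.24 in FTV, a mean of -0.06 ± 0.20 (n = 4, limma adjusted p = 0.632). Probe 2 gave 0.25, 0.42, 0.38 and 0.31, above 0 in every animal, with a mean of 0.34 ± 0.08 (n = 4, limma adjusted p = 0.00824). This is a 1.27-fold rise, and its levels overlapped, at 8.49 to 8.84 before and 8.78 to 9.14 after. The call was lost without FKN (adjusted p = 0.052), without FBR (0.0506) and with median centring in place of loess (0.171). The difference between the probes was not tested.

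**Figure D4:**
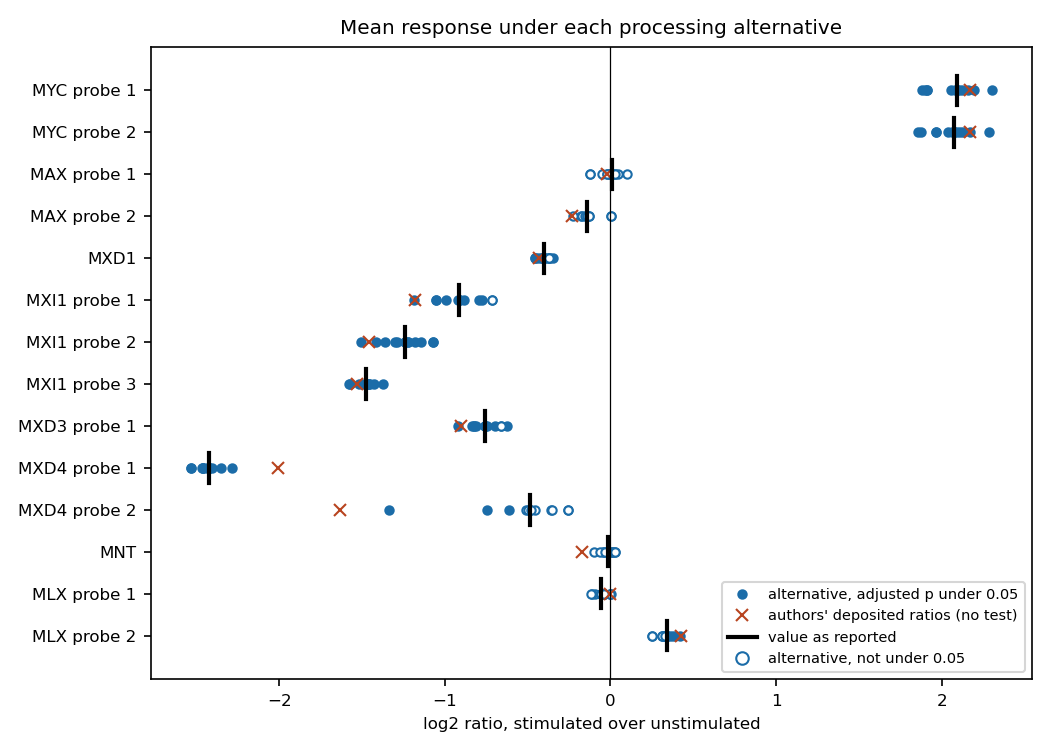
Mean log2 ratio of stimulated over unstimulated RNA (x axis) for each tested probe under every processing alternative (points, filled where the adjusted p is under 0.05), in the authors' deposited table (crosses) and as reported (bars). MYC stays between 1.86 and 2.30, MXD4 probe 2 ranges from -1.63 to -0.26, and the MAX and MNT points lie on both sides of 0.

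The CD4 status of the animals was compared for each member, 2 animals against 2. At an adjusted p under 0.05, 0% of the 27493 probes differed in response, unstimulated level or stimulated level by limma, and at an unadjusted p under 0.05 the counts were 594, 445 and 530, with 0 members in each. The rise of MYC probe 1 was 1.46 and 2.05 in the normal animals and 2.19 and 2.67 in the low ones, so the groups did not overlap, as in 27% of all tested probes and in 4 of the 14 tested for these genes. The difference was 0.68 on the log2 scale (limma adjusted p = 1), with a 95% interval of -0.07 to 1.43 that includes 0. The others without overlap were MYC probe 2, MXD1 and MXD4 probe 2, the last 2 of these with differences of -0.18 and -0.42 (limma adjusted p = 1 for each). In unstimulated level 5 of the 14 probes had no overlap between the groups (34.3% of all probes), MAX probe 1 among them, while MYC overlapped. In stimulated level 2 had none (34.2% of all), MYC probe 1, at 11.25 and 11.44 against 12.03 and 11.51, and MAX probe 1, at 13.33 and 13.05 against 12.88 and 12.82. These shares are near or below those of all probes.

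In the stimulated level, leaving out FKN set FNV alone against the low animals and called 18.8% of all probes, MAX probe 2 among them. Its level was 8.26 in FNV, 7.47 in FBR and 7.39 in FTV, a difference of -0.83 (limma adjusted p = 0.0473). With FKN, at 7.25, the groups overlapped. The lone normal animal in that comparison is assumed to vary like the others, and its arrays were scanned apart. Its stimulated level also includes the array with 38.4% of spots well above background.

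Further network genes and cofactors moved in both directions. Of 25 listed genes, 14 could be tested at their brightest probe: 5 rose (35.7%), 2 fell (14.3%) and 7 did not pass, with a median log2 ratio of 0.17 against -0.01 over the 8777 named genes, of which 22.4% rose and 24.6% fell. RUVBL1 and RUVBL2, ATPases of chromatin-remodelling complexes that bind MYC, rose by 1.26 ± 0.16 and 1.08 ± 0.20 on the log2 scale (n = 4, limma adjusted p = 0.000658 and 0.00104), though another RUVBL1 probe gave 0.23. MLXIP, a Mondo partner of MLX, rose by 0.65 ± 0.10 (limma adjusted p = 0.0015), from 0.51 in FNV to 0.74 in FTV. MYCL1, a MYC paralog, fell by 0.54 (SD 0.16, limma adjusted p = 0.00481), and MYCBP, a MYC-binding protein, by 0.45 (SD 0.25, limma adjusted p = 0.0228). The count of rises was 2 with median centring and 3 without FKN, FBR or FTV, and without any one of these 3 animals 1 gene fell; with self-self arrays and no replicate block 3 rose and 0 fell.

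Genes that set the stability or activity of the MYC protein were measured for 20 of 24 names: 7 rose (35%, against 22.4% of named genes), 4 fell (20%, against 24.6%) and 9 did not pass (median log2 ratio 0.03). PIM3 and PIM2, kinases that phosphorylate MYC, rose by 2.14 ± 0.26 and 1.20 ± 0.22 (n = 4, limma adjusted p = 0.000534 and 0.001), and a dimmer PIM2 probe gave 0.56. HUWE1, a ubiquitin ligase for MYC, rose by 1.20 ± 0.14 (limma adjusted p = 0.000638). FBXO32, an F-box protein of another ubiquitin ligase, fell by 1.42 (SD 0.14, limma adjusted p = 0.000529). The kinase MAPK3 fell by 1.35 (SD 0.19, limma adjusted p = 0.000672), and its other probe gave -0.98. With median centring 3 genes of the list rose, and with self-self arrays and no replicate block 2.

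Genes listed as activated by MYC rose in most cases: of 37 tested of 52 names, 29 rose (78.4%, against 22.4% of named genes), 1 fell and 7 did not pass. Their median log2 ratio was 0.95. This list, like the other gene lists here, was chosen with earlier results of these data known. Its share of rises therefore describes these data and is no independent test. The count of rises was 20 with median centring and 15 with self-self arrays and no replicate block. TFRC, the transferrin receptor, rose by 2.43 ± 0.96 (n = 4, limma adjusted p = 0.00578), with 0.99 in FNV against 2.85 in FKN, 3.00 in FBR and 2.89 in FTV. NME1, a nucleoside diphosphate kinase, rose by 2.00 ± 0.41 and GNL3, a nucleolar GTP-binding protein, by 1.82 ± 0.19 (limma adjusted p = 0.001 and 0.000524). E2F1, a cell cycle transcription factor, fell by 0.30 (SD 0.09, limma adjusted p = 0.0144), a call that was lost without FKN, FBR or FTV and with median centring.

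Genes listed as repressed by MYC divided: of 14 tested of 23 names, 2 rose, 5 fell (35.7%, against 24.6% of named genes) and 7 did not pass, with a median log2 ratio of -0.35. TXNIP, a target of the Mondo proteins with MLX as well, fell by 1.41 (SD 0.23, n = 4, limma adjusted p = 0.000778). CDKN1B, the cyclin-dependent kinase inhibitor p27, fell by 1.34 (SD 0.07, limma adjusted p = 0.000487), with -1.33 in FNV, -1.33 in FKN, -1.43 in FBR and -1.27 in FTV. KLF4, a transcription factor of quiescent cells, fell by 1.36 (SD 0.99, limma adjusted p = 0.0373), from -2.61 in FNV to -0.32 in FTV, and its other probe gave -0.30. GADD45B and GADD45A, stress response genes, rose by 2.08 ± 0.51 and 0.58 ± 0.27 (limma adjusted p = 0.00147 and 0.0138). Without FKN 3 genes fell, and without FKN or FBR 1 rose; with median centring, or with self-self arrays and no replicate block, 3 fell and 1 rose. Every list here was measured after the same stimulation, so a gene's listing does not show which factor acted on it.

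**Figure D5:**
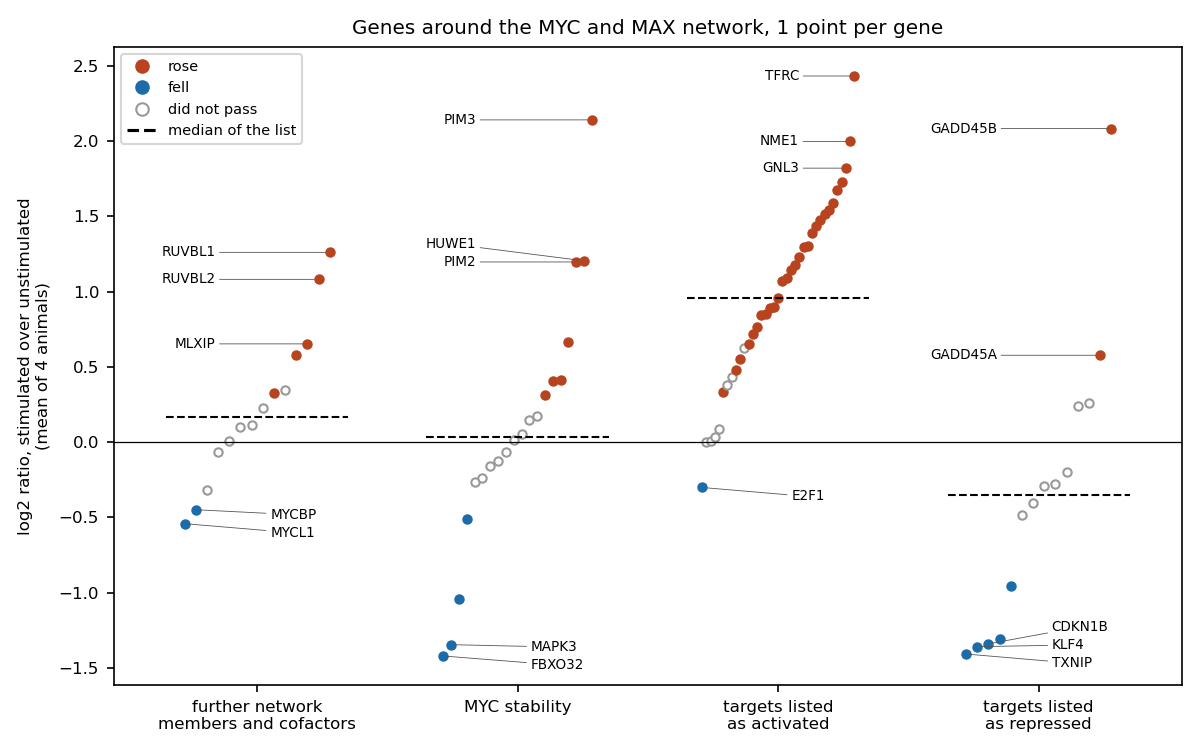
Mean log2 ratio of stimulated over unstimulated RNA (y axis) for each tested gene of 4 lists, 1 point per gene at its brightest probe, ordered by value within a list and coloured by whether it rose, fell or did not pass. The dashed medians are 0.17, 0.03, 0.95 and -0.35 from left to right.

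The levels of MYC over the 8 animal and condition means were most like those of STIP1 (Pearson r = 0.999), ECE2 (0.992), CCDC86 (0.992), KPNA2 (0.989) and RRP12 (0.987), among 8776 other named genes. STIP1 is a heat shock protein co-chaperone, ECE2 an endothelin-converting enzyme, KPNA2 a nuclear import receptor and RRP12 a ribosome biogenesis factor. All 5 rose, with log2 ratios from 1.04 ± 0.33 for STIP1 to 2.30 ± 0.43 for RRP12 (n = 4, limma adjusted p = 0.00357 and 0.000856). The 8 points share arrays and fall into stimulated and unstimulated levels, so the coefficients are a description.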

How the data were processed

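RNA of 4 animals was measured on 16 arrays with 2 colours, 4 per animal. The authors deposited unnormalised scanner output with linear spot and background intensity, which per the file headers came from version 10.7.3.1 of Agilent Feature Extraction. The same files hold that software's corrected log10 ratio (Cy5 over Cy3), per the file headers. A table of the series holds, for every animal, the authors' deposited log2 ratio (stimulated to unstimulated). Set against the ratios computed here it correlated at 0.882 to 0.920 across probes, which fixes its direction; its background method and centring are not given in the sources used here.

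With limma 3.58.1 in R 4.3.3 (other packages were statmod, version 1.5.0, and data.table, version 1.17.8), mean signals were corrected by normexp (offset 50) and loess within arrays, with control and outlier spots at weight 0; at most 51 outlier spots per array were then left out. The 2 dye-swapped arrays of an animal hold the same RNA and were averaged, so n = 4 animals, and the precision is limited by that number. Levels are means of 4 Aquantile-normalised channels. The filter kept probes that, in 2 or more animals, exceeded background clearly in the same condition's channel of both dye-swapped arrays. Ratios were tested against 0 with lmFit and eBayes, and low minus normal CD4 status on ratios and levels, with Benjamini-Hochberg adjustment over every tested probe. A self-test on simulated data was run on the same fit. Every probe was a feature; gene lists used each gene's brightest probe. Figures used Python 3.11.15 and matplotlib 3.10.9.

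Probe positions come from the files (rheMac2); exon and UTR annotation was not used here. The files have 2 annotation editions, and the newer was used: MXI1 probe 3 and MAX probe 2 carry their gene name there only. Named genes were all members, the 3 largest rises and falls past the threshold in each list, and the 5 genes most like MYC; some genes that the rule or the lists hold are not reported here. Members and lists were chosen with earlier results of these data known. Alternatives covered background, normalisation, filter, probe choice, each animal, scan batch, the FNV array with conflicting labels, self-self arrays and the authors' values.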

Additional observations from a re-analysis of the deposited data

Results flagged for a closer look

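There were 44 groups of 4 animals: each tested member probe's response, and every member probe's levels in either condition. In each, the animal farthest from the others was set against Dixon's 95% critical value for groups of that size. Of the 44, 5 exceeded it, and chance gives about 1 in 20. For MXI1 probe 1, the unstimulated log2 level was 8.83 in FTV against 8.54 to 8.56 in the other animals. For MLX probe 1, the stimulated level was 8.87 in FTV against 9.25 to 9.26. For the MNT probe, the unstimulated level was 6.45 in FNV against 6.71 to 6.72. The dim MXD3 probe 2 stood at 6.83 unstimulated in FNV against 6.44 to 6.49, and the dim MXD4 probe 2 at 6.85 stimulated in FNV against 6.67 to 6.70. Of these 5 values, 3 belong to FNV, whose arrays were scanned in an earlier batch, and all 3 come from probes that were not above background in every channel. No response was among the 5. The stimulated value of MXD4 probe 2 in FNV includes the array with 38.4% of spots well above background.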

How the results depend on the processing

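Both MYC probes, MXD4 probe 1 and MXI1 probes 2 and 3 kept direction and call under every alternative with a test, and no call changed sign. MXD1, MXD3 probe 1 and MXI1 probe 1 lost theirs with the self-self arrays and no replicate block (adjusted p = 0.689, 0.109 and 0.0907). MXD4 probe 2 also lost its call with median centring (0.0906) and no filter (0.0584), and MLX probe 2 and MXD4 probe 2 did with the self-self arrays and the replicate block (0.0708 and 0.383). The count of changed probes was 11082; it was 4851 with median centring, where 40.2% of calls were rises against 49.3%, 2166 with self-self arrays and no replicate block, and 8161 with the replicate block, where 6 of the 10 gene-named member probes passed. Without the block 4 of these 10 and 1 description-named probe passed, and with 1 probe per gene name 3 of 5. Leaving out an animal gave 5796 (FKN) to 14074 (FNV) changed probes. By CD4 status it gave 0 to 2 probes in unstimulated level and 0 to 5168 in stimulated level (FKN left out), with 0 to 1 member. The MNT probe and the dim MXD3 and MXD4 probes are limited by signal over background.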
